A study of Mus musculus with 3 samples.

Results

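TRBV1 is one of the V genes from which mouse T cells assemble the beta chain of the T-cell receptor (TCR), and its older name is Vβ2. TRBV1 clonotypes were chosen by the V gene call alone. They are the rows with TRBV1 as the best V gene and a TRBJ gene as the best J gene, where a clonotype is the set of reads that share one nucleotide sequence of the CDR3, the loop that spans the junction of V, D and J. There were 16918 of them among 167967 TRB clonotypes, with 2920 of 44807 in CD4 T cells, 9194 of 81212 in CD8 T cells and 4804 of 41948 in double negative (DN) T cells. Because the V gene call selected the members, the read share of TRBV1 and the first bases of its CDR3 are given as descriptions.

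The 3 libraries were made from 1 MRL.lpr mouse aged 16 weeks, and 1000000 splenic cells of each subset were sorted by flow cytometry. MRL.lpr mice carry a defective Fas gene, develop a lupus-like disease and accumulate αβ T cells without CD4 or CD8. Each subset had 1 library from 1 mouse, so there was no replicate check and no p-value is given. Intervals are 95% intervals that cover counting error only, and reads copied by PCR without molecular identifiers are not independent molecules. The files hold TCR sequences alone, so the sorted subsets could not be checked against Cd4 or Cd8a. The libraries shared clonotypes, and 20.9% of the TRBV1 clonotypes of DN T cells were also found in CD8 T cells, so the shares of TRBV1, its TRBJ2 use, CDR3 length and second cysteine are also given for clonotypes found in 1 library alone. Clonotypes with TRB genes held 133667 reads in the CD4, 150874 in the CD8 and 194290 in the DN library, and a share down to 0.00224%, 0.00199% and 0.00154% (3 reads of each total) could be shown.

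A beta chain gene is assembled in the thymus by joining a D to a J segment and then a V to the DJ, with bases trimmed from the ends and added between them. The V gene supplies the first residues of the CDR3, which starts at a conserved cysteine, and the J gene supplies the last. The TRB locus holds 2 clusters, in which TRBD1 lies before the TRBJ1 genes and TRBD2 before the TRBJ2 genes, so that TRBD1 can reach the J genes of both clusters. In the RefSeq gene order of GRCm38.p6, Trbv1 (synonym Tcrb-V2) was the first of 35 Trbv genes, and 6 genes that are no V genes lay between it and Trbv2. CD4 T cells recognise peptides on MHC class II and CD8 T cells on class I molecules, and mature DN T cells in lpr mice are αβ T cells without either coreceptor.

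The CDR3 sequences are shown first because a start that nearly all TRBV1 clonotypes share, and the largest clonotypes of each subset, recur in the results. Capitals mark bases 7 to 9, the codon of a second cysteine at CDR3 position 3, counted from the conserved cysteine at position 1. The first line is the consensus start over 14620 distinct in-frame TRBV1 CDR3 sequences. It was extended base by base while at least 50% of the sequences that still matched it carried the same next base. At base 18 this was 62.3% of the 5070 sequences that had matched up to there. The clonotypes in the other lines are named by the subset in which their share was highest and by their order there. Their sequences run from the conserved cysteine to the last residue of the CDR3.
consensus start: tgcaccTGCagtgcagat
DN clonotype 1 (TRBJ2-7): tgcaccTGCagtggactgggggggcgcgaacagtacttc
DN clonotype 2 (TRBJ2-1): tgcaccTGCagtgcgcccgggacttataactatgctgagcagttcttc
DN clonotype 3 (TRBJ2-7): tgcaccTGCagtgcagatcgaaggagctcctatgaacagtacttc
DN clonotype 4 (TRBJ2-1): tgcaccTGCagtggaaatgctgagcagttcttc
DN clonotype 5 (TRBJ1-1): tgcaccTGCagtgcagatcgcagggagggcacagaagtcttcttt
CD8 clonotype 1 (TRBJ2-4): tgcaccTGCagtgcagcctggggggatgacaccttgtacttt
CD8 clonotype 4 (TRBJ1-6): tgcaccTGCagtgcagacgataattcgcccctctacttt
CD4 clonotype 1 (TRBJ2-7): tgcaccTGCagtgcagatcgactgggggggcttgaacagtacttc
CD4 clonotype 2 (TRBJ1-3): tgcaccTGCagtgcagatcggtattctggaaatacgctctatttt
CD4 clonotype 3 (TRBJ1-3): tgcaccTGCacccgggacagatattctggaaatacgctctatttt
CD4 clonotype 4 (TRBJ2-3): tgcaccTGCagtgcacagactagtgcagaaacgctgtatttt
CD4 clonotype 5 (TRBJ2-3): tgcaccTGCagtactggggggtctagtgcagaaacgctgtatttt

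TRBV1 had 8664 reads in CD4 T cells, or 6.48% of TRB reads (95% Wilson interval 6.35 to 6.62). It had 16247 reads in CD8 T cells (10.8%, 10.6 to 10.9) and 23151 in DN T cells (11.9%, 11.8 to 12.1). CD4 T cells therefore had the lowest share, and the intervals of the 3 libraries did not overlap. Counted by clonotypes, TRBV1 made up 6.52% (6.29 to 6.75) in CD4, 11.3% (11.1 to 11.5) in CD8 and 11.5% (11.2 to 11.8) in DN T cells, and here CD8 and DN T cells overlapped. Among the 14 V genes with at least 0.5% of the reads in every library, TRBV1 ranked 8 in CD4 T cells, between TRBV19 (6.57%) and TRBV13-3 (5.81%). It ranked 4 in CD8 T cells, between TRBV31 (11.5%) and TRBV13-2 (9.81%). In DN T cells it ranked 2, behind TRBV13-1 (20.4%) and just ahead of TRBV13-3 (11.75%).

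**Figure D1:**
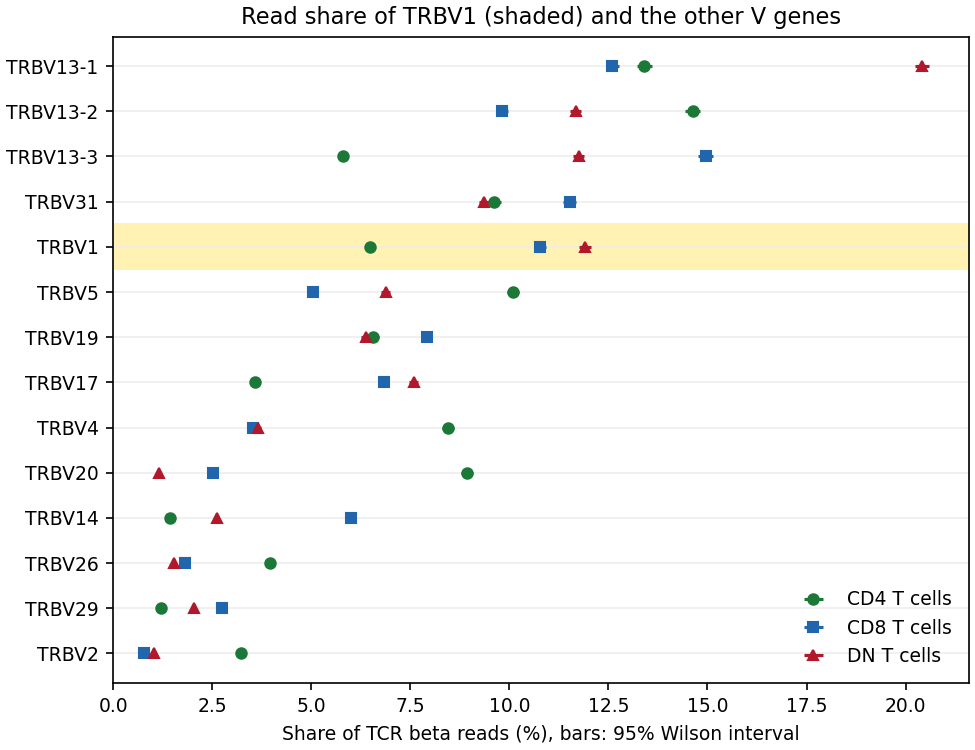
Share of TRB reads (%) of 14 V genes in the CD4 (circles), CD8 (squares) and DN (triangles) library, with 95% Wilson intervals and TRBV1 shaded. TRBV1 lies at 6.48% in CD4 T cells and at 10.8% and 11.9% in CD8 and DN T cells, which are close to each other.

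In DN T cells TRBV1 had 1.84 times its read share in CD4 T cells (1.79 to 1.88), and the share in CD8 T cells was 1.66 times that in CD4 T cells (1.62 to 1.70). Of the 14 V genes, 42.9% had a read share over 1.5 times higher in DN than in CD4 T cells, and 35.7% over 1.5 times higher in CD8 than in CD4 T cells, so that TRBV1 was 1 of several on both counts. Between DN and CD8 T cells the ratio was 1.11 (1.09 to 1.13) by reads and 1.01 (0.979 to 1.05) by clonotypes, where 7.14% of the V genes were over 1.5 times higher in DN T cells and TRBV1 was not among them. Without the 10 largest TRB clonotypes of each library, the DN to CD8 ratio of TRBV1 read shares was 0.986, below 1. Of those 10 clonotypes in DN T cells, 4 used TRBV1. Restricted to clonotypes found in no other library, TRBV1 took 5.36%, 10.4% and 10.8% of the reads of the CD4, CD8 and DN libraries, and the DN to CD4 ratio was 2.01. The V genes with the most similar pair of ratios, measured as the distance between their log2 ratios over the 3 libraries, were TRBV17 (1.11 for DN over CD8 and 2.12 for DN over CD4), TRBV13-3 (0.786 and 2.02) and TRBV29 (0.742 and 1.69).

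A second cysteine marked the CDR3 of TRBV1 clonotypes. It lies in the stretch that the V gene encodes and that the V call used, so its frequency is a description. Cysteine stood at position 3 in 2739 of 2758 in-frame TRBV1 clonotypes in CD4 T cells (99.3%), in 8829 of 8884 in CD8 T cells (99.4%) and in 4524 of 4559 in DN T cells (99.2%). In-frame here means a CDR3 length that is a multiple of 3 bases without a stop codon. Of the in-frame clonotypes with other V genes, 0.298% in the CD4, 0.241% in the CD8 and 0.363% in the DN library had a cysteine inside the CDR3 at any position after the first. TRBV1 thus supplied 96.0%, 98.2% and 97.3% of all CDR3s with an interior cysteine in CD4, CD8 and DN T cells. Cysteine is the residue that can form disulphide bonds, and a cysteine past position 3 was rare among TRBV1 clonotypes, with 2, 19 and 6 cases in CD4, CD8 and DN T cells.

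The TRBV1 clonotypes without the second cysteine numbered 19 in the CD4, 55 in the CD8 and 35 in the DN library. Most of them had a single read (18, 48 and 27 clonotypes), and the largest had 7 reads in the CD4, 17 in the CD8 and 5 in the DN library. None of the large TRBV1 clonotypes shown above lacked it.

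The consensus start was kept to different depths at different positions. All of its first 9 bases, which end with the codon of the second cysteine, were kept by 98.5% of the in-frame clonotypes in the CD4, 98.3% in the CD8 and 98.1% in the DN library. The first 12 bases, which add a serine codon, were kept by 92.5%, 93.4% and 91.4%. The first 15 bases, which add an alanine codon, were kept by 53.3% (51.4 to 55.1), 58.5% (57.4 to 59.5) and 56.8% (55.4 to 58.2). All 18 bases were kept by 19.8%, 22.1% and 22.4%. The named clonotypes show this spread. DN clonotype 3 and DN clonotype 5 matched the consensus over all 18 bases, DN clonotype 1 and DN clonotype 4 left it after 13, and CD4 clonotype 3 left it after 10.

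**Figure D2:**
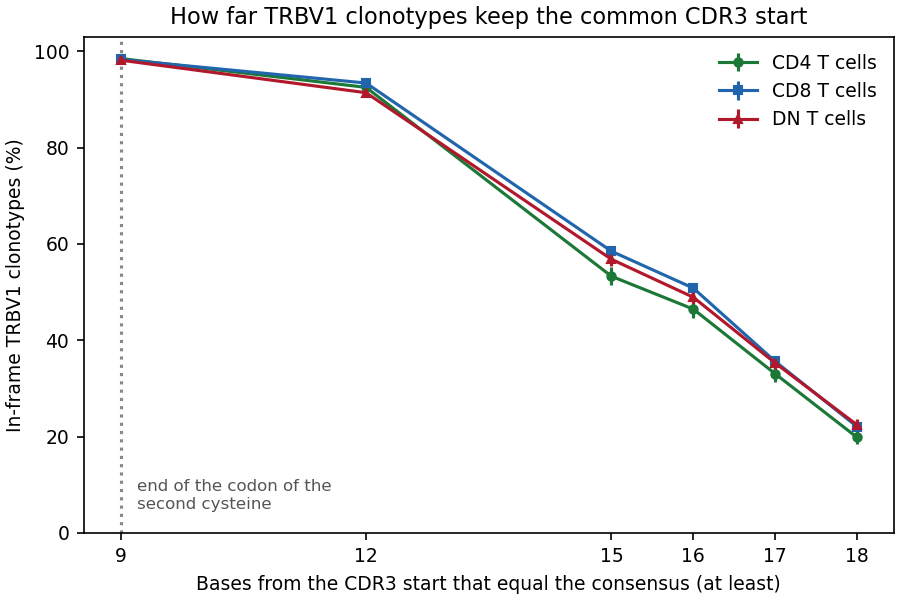
Share of in-frame TRBV1 clonotypes (%) whose CDR3 equals the consensus from its start over at least the given number of bases, by library, with 95% Wilson intervals. The dotted line marks the end of the codon of the second cysteine, up to which 98.1% to 98.5% of clonotypes kept the consensus, while 19.8% to 22.4% kept all 18 bases.

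Behind the second cysteine, TRBV1 clonotypes carried serine at position 4 in 95.6% of CD4, 96.2% of CD8 and 94.2% of DN clonotypes. Alanine stood at position 5 in 75.6%, 78.6% and 77.0%, followed by glycine in 9.94%, 8.42% and 8.31%. At position 6 the most frequent residue was aspartate, with 31.8% in the CD4, 31.8% in the CD8 and 33.6% in the DN library. Glycine at position 6 was less frequent in DN T cells (15.9%, 14.85 to 16.97) than in CD4 (20.4%, 19.0 to 22.0) or CD8 T cells (19.2%, 18.4 to 20.1).

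Positions 6 and 7 lie where the V-encoded start gives way to the D region and added bases, and their residues often face the peptide. Over CDR3s of 11 to 18 residues, an acidic residue (aspartate or glutamate) stood at position 6 or 7 in 45.7% of the TRBV1 clonotypes in the CD4, 47.6% in the CD8 and 50.7% in the DN library, against 22.9%, 24.7% and 30.9% of the clonotypes with other V genes. The last codon of the consensus start itself encodes aspartate. Hydrophobic residues stood there in 25.2% (23.6 to 26.8) of TRBV1 clonotypes in CD4, 26.8% (25.8 to 27.7) in CD8 and 31.5% (30.2 to 32.9) in DN T cells, and in 24.9%, 30.2% and 38.6% with other V genes. DN T cells were thus highest in both groups, and CD4 and CD8 T cells overlapped for TRBV1 but not for the other V genes. Glycine at either position was lower in DN T cells (35.6%) than in CD4 (42.8%) and CD8 T cells (42.2%) for TRBV1, and the same order held for other V genes (47.0%, 55.8% and 54.7%).

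One pair of residues, aspartate followed by arginine at positions 6 and 7, was the most frequent of all pairs among TRBV1 clonotypes in each library. This pair was singled out after its values were seen. It made up 7.90% of the in-frame TRBV1 clonotypes in the CD4 (218 clonotypes), 7.08% in the CD8 (629) and 6.73% in the DN library (307). In the DN library aspartate followed by tryptophan came close, with 6.14% (5.48 to 6.88) beside 6.73% (6.04 to 7.50). The reads of this pair rested in part on a few clonotypes, since CD4 clonotypes 1, 2 and 3 held 2.72%, 2.32% and 1.95% of the TRBV1 reads of CD4 T cells, and DN clonotypes 3 and 5 held 3.17% and 1.90% of those of DN T cells. As a share of reads it took 15.3% of the in-frame TRBV1 reads of CD4 and 15.8% of those of DN T cells, but 8.47% of those of CD8 T cells. It was found in 10, 15 and 16 of the 100 largest in-frame TRBV1 clonotypes of CD4, CD8 and DN T cells. Aspartate followed by tryptophan was found in 11 of the 100 in CD4 and in 8 in DN T cells. Neither pair was set beside other V genes. Of the 12 sequences listed above after the consensus, 5 carried aspartate followed by arginine. They were CD4 clonotypes 1, 2 and 3, DN clonotype 3 and DN clonotype 5.

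TRBV1 was joined to 12 J genes in every library, from TRBJ1-1 to TRBJ1-6 and from TRBJ2-1 to TRBJ2-5, with TRBJ2-7. TRBJ2-7 was the most used, with 17.1% of the in-frame TRBV1 clonotypes in the CD4, 18.3% in the CD8 and 20.8% in the DN library, and TRBJ2-1 came next with 13.8%, 12.2% and 14.2%. Compared with other V genes, the TRBV1 clonotypes of CD8 and DN T cells used the TRBJ2 cluster less. TRBJ2 genes were used by 64.8% of TRBV1 clonotypes in CD8 T cells against 69.9% for other V genes, a difference of -5.05 percentage points (95% Newcombe interval -6.10 to -4.00). In DN T cells the shares were 65.8% and 71.4%, a difference of -5.55 points (-7.02 to -4.10). Weighted by reads, the difference was -3.01 points in CD8 and -8.07 in DN T cells. TRBJ2-7 did not follow its cluster by reads in DN T cells. It was used by 20.8% of TRBV1 clonotypes there against 23.8% for other V genes, but held 26.7% of in-frame TRBV1 reads against 23.7%. In CD8 T cells it held 19.1% of the reads against 21.5%. In CD4 T cells TRBJ2-7 held 20.9% of the reads against 17.4%. The whole TRBJ2 cluster was used there by 63.7% of TRBV1 clonotypes and 63.4% of those with other V genes. The interval of this difference of 0.24 points (-1.64 to 2.08) included 0. By TRBJ2 use, TRBV1 ranked 7 of the 14 V genes in the CD4, 13 in the CD8 and 11 in the DN library.

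In CD8 and DN T cells TRBV1 was joined more often than other V genes to TRBJ1-4, TRBJ1-5 and TRBJ1-6. TRBJ1-5 was used by 4.12% of TRBV1 clonotypes in CD8 T cells against 2.31% for other V genes, and by 3.33% against 2.18% in DN T cells. TRBJ1-4 was used by 7.68% against 6.28% in CD8 and 8.66% against 6.37% in DN T cells, and TRBJ1-6 by 4.71% against 3.39% and 5.22% against 3.86%. TRBJ1-1 was also used more in CD8 T cells, by 1.332 points (0.6952 to 2.001), while in DN T cells its interval included 0 (-0.5272 to 1.248). In CD4 T cells TRBJ1-4 was used more by 1.196 points (0.1547 to 2.346). Weighted by reads this turned round, with 4.968% for TRBV1 against 7.096%. For TRBJ1-5 and TRBJ1-6 the CD4 intervals included 0. The direction was not shared by every gene of a cluster. TRBJ1-2 was used less in CD8 T cells, with a difference of -0.683 points (-1.11 to -0.218). In CD4 T cells TRBJ1-2 (-1.06 points, -1.865 to -0.1374) and TRBJ1-3 (-0.9536 points, -1.756 to -0.03426) were used less. In the TRBJ2 cluster, TRBJ2-2 was used more in CD8 T cells by 0.779 points (0.294 to 1.30) and TRBJ2-4 by 0.63 points (0.035 to 1.26), and TRBJ2-1 was used more in CD4 T cells by 1.33 points (0.0453 to 2.70). Between the libraries, the TRBJ2 share of TRBV1 differed by 2.14 points from CD4 to DN T cells (-0.12 to 4.40) and by 1.18 points from CD4 to CD8 T cells (-0.859 to 3.24), both with intervals that included 0. For the other V genes the same differences were 7.92 points (7.24 to 8.60) and 6.46 points (5.87 to 7.05), and these intervals did not overlap those of TRBV1. From CD8 to DN T cells the difference was 0.957 points (-0.747 to 2.65) with TRBV1, overlapping the 1.46 points (0.869 to 2.06) with the other V genes.

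**Figure D3:**
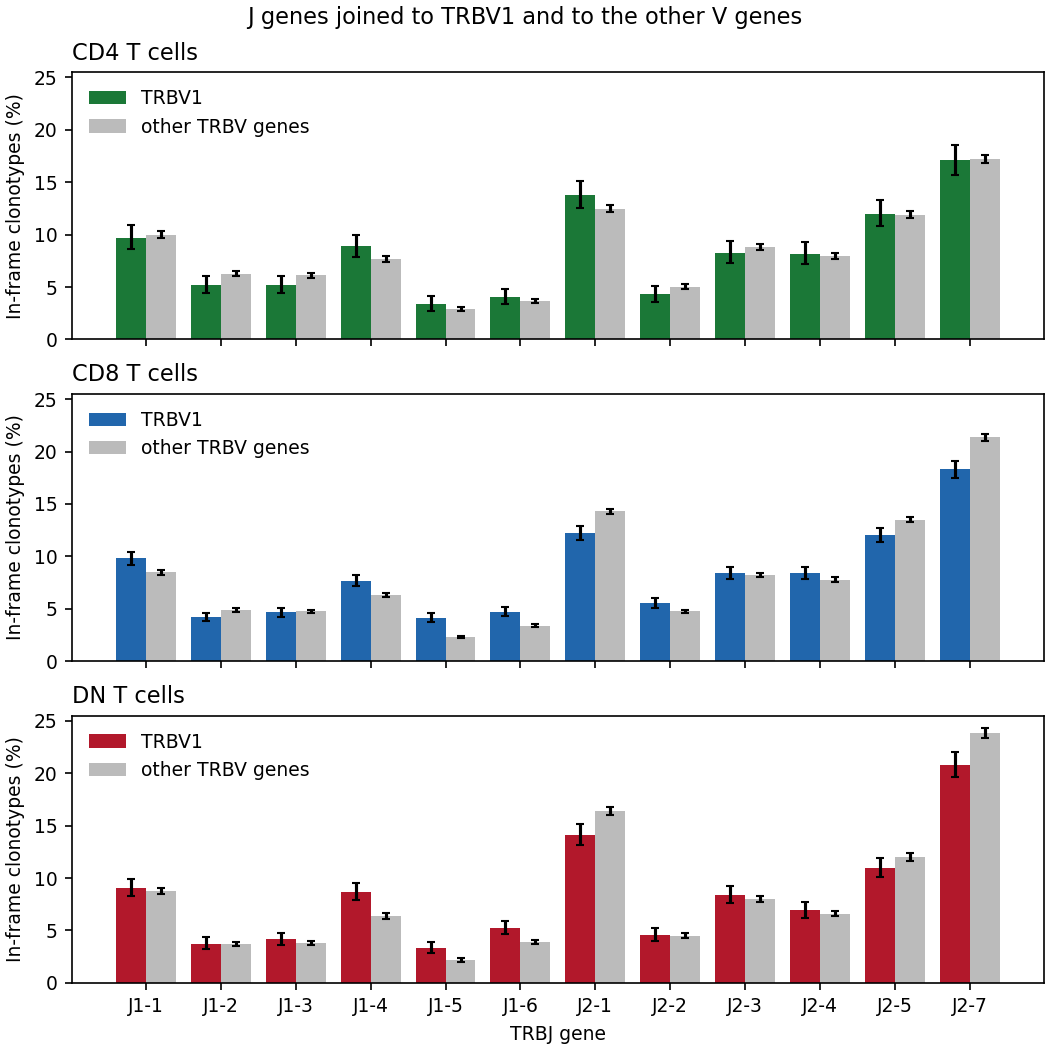
Share of in-frame clonotypes (%) that used each TRBJ gene, for TRBV1 (coloured) and all other V genes (grey), in CD4, CD8 and DN T cells, with 95% Wilson intervals. In CD8 and DN T cells the TRBV1 bars are higher for J1-4, J1-5 and J1-6 and lower for J2-1 and J2-7. For J2-7, TRBV1 had 18.3% in CD8 and 20.8% in DN T cells, against 21.4% and 23.8% for the other V genes.

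No D gene was assigned to 31.6% of the in-frame TRBV1 clonotypes in the CD4, 27.6% in the CD8 and 25.1% in the DN library, against 26.1%, 26.1% and 23.1% for other V genes. The difference was 5.49 points in the CD4 (3.73 to 7.30), 1.54 in the CD8 (0.565 to 2.54) and 2.03 in the DN library (0.716 to 3.39). Weighted by reads it was 9.32, 3.77 and 8.61 points, and among DN clonotypes with at least 2 reads it was 0.906. Within TRBJ1 joins the direction turned in CD8 T cells, where 33.6% of TRBV1 clonotypes had no D gene against 35.4% (-1.81 points, -3.57 to -0.0129), and the DN difference was -0.687 points (-3.16 to 1.86). Within TRBJ2 joins TRBV1 had more clonotypes without D in each library, by 6.16 points in CD4 (4.04 to 8.38), 2.32 in CD8 (1.17 to 3.51) and 2.20 in DN T cells (0.698 to 3.78). TRBD2 was assigned to 25.5%, 27.0% and 33.1% of TRBV1 clonotypes, and to 29.04%, 32.7% and 40.6% with other V genes. This lower use of TRBD2 was also present among TRBJ2 joins alone, where TRBD2 was called in 38.1% of TRBV1 clonotypes in the CD4, 39.4% in the CD8 and 47.5% in the DN library, against 42.6%, 44.5% and 54.3%. In DN T cells TRBD2 was thus called more often than in the other subsets, for TRBV1 and for other V genes. TRBD2 lies behind the TRBJ1 genes and cannot join them by deletion. TRBD2 was nevertheless called on 3.49%, 4.19% and 5.45% of the TRBJ1 joins of TRBV1 in CD4, CD8 and DN T cells.

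TRBV1 CDR3s were longer than those of most other V genes. In-frame TRBV1 clonotypes had a mean of 14.24 ± 1.52 residues in CD4 (SD over 2758 clonotypes), 14.49 ± 1.44 in CD8 (8884) and 14.75 ± 1.42 in DN T cells (4559). Other V genes had means of 13.89, 13.84 and 14.14 residues, which left TRBV1 longer by 0.349 (0.291 to 0.408), 0.645 (0.613 to 0.677) and 0.603 residues (0.559 to 0.648). With the J genes of both groups brought to a common mix, the differences were 0.340, 0.630 and 0.591 residues. Among clonotypes with at least 2 reads they were 0.245, 0.670 and 0.639 residues. Weighted by reads they were 0.331, 0.615 and 0.406, so the DN difference became smaller. Among the 14 V genes TRBV1 had the third longest mean in CD4 T cells, after TRBV5 (14.5) and TRBV2 (14.5), and came second after TRBV2 in CD8 (14.8) and DN T cells (14.98). TRBV20 was shortest in all 3. The most frequent length was 15 residues for TRBV1 and 14 for the other V genes in every library.

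**Figure D4:**
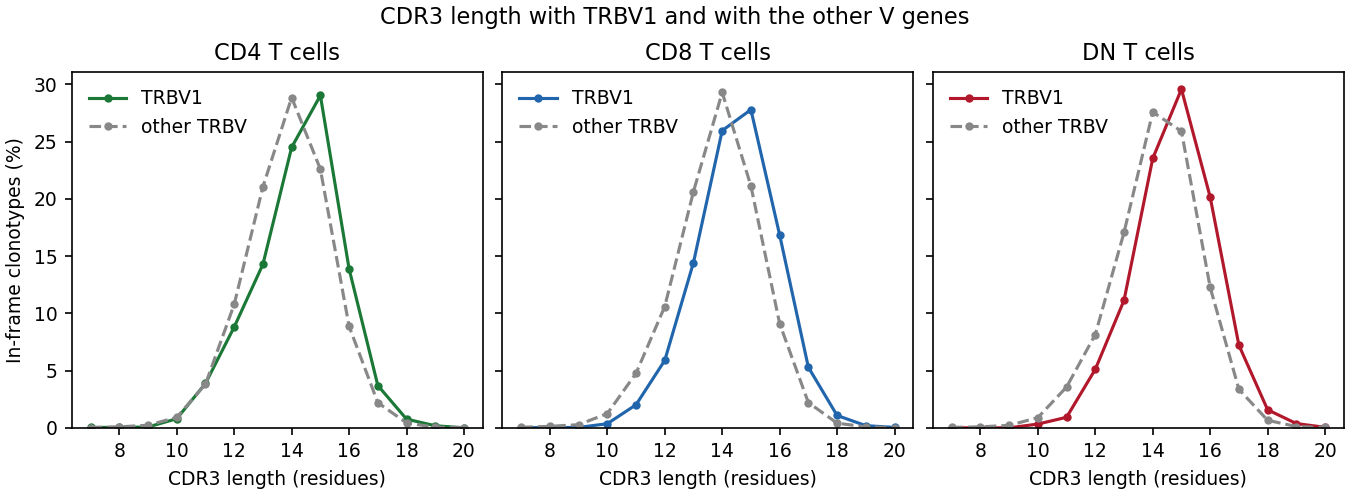
Share of in-frame clonotypes (%) with each CDR3 length in residues, for TRBV1 (solid, coloured) and all other V genes (dashed, grey), in CD4, CD8 and DN T cells. TRBV1 peaks at 15 residues in each library and the other V genes at 14.

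From CD4 to CD8 to DN T cells the TRBV1 CDR3 grew longer. DN clonotypes exceeded CD4 clonotypes by 0.503 residues (0.433 to 0.573) and CD8 clonotypes by 0.258 (0.207 to 0.308), in both cases with each of the 12 J genes taken by itself. CD8 clonotypes exceeded CD4 clonotypes by 0.245 residues (0.181 to 0.309), with 10 of the 12 J genes. For the other V genes, DN exceeded CD4 clonotypes by 0.249 residues and CD8 clonotypes by 0.299, and CD8 clonotypes were shorter than CD4 clonotypes with a mean difference of -0.0509 residues (-0.0695 to -0.0322). The place of CD8 T cells therefore differed, close to midway for TRBV1 and just below CD4 T cells for the other V genes. Short CDR3s of at most 12 residues made up 13.6% of TRBV1 clonotypes in the CD4, 8.33% in the CD8 and 6.36% in the DN library. Long ones of at least 17 residues made up 4.64%, 6.60% and 9.21%. The stretch that matched the consensus start had a mean of 14.95, 15.13 and 15.02 bases, and the remainder of the CDR3 had 27.8, 28.3 and 29.2 bases. Of the difference between DN and CD4 T cells, 0.07 bases (-0.0523 to 0.193) lay in the matching stretch and 1.44 bases (1.22 to 1.66) in the remainder.

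In-frame clonotypes made up 94.5% of all TRBV1 clonotypes in the CD4 (93.6 to 95.2), 96.6% in the CD8 (96.2 to 97.0) and 94.9% in the DN library (94.2 to 95.5). The other V genes had 92.0%, 94.9% and 90.5%, with TRBV1 ranking 8, 7 and 5 of 14. Out-of-frame transcripts come from the allele of a T cell that failed to make a receptor and are usually degraded. TRBV1 had 162 out-of-frame clonotypes in the CD4, 310 in the CD8 and 245 in the DN library, counting those with a stop codon. In 9, 20 and 15 of them the length was a multiple of 3 and a stop codon alone closed the frame. Of all out-of-frame clonotypes, 8, 10 and 31 were 1 inserted or deleted base away from an in-frame clonotype with at least 10 times their reads. The largest out-of-frame clonotypes are shown because they hold no open reading frame but were seen in over 10 reads.
DN out-of-frame clonotype (TRBJ2-1): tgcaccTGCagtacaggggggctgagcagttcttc
CD4 out-of-frame clonotype (TRBJ2-3): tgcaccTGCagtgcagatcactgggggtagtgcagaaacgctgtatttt
The DN out-of-frame clonotype had 113 reads in DN, 12 in CD8 and 3 in CD4 T cells and was also the largest out-of-frame one in CD8 T cells. The CD4 out-of-frame clonotype had 18 reads in CD4 T cells, 1 in DN and none in CD8 T cells.

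The size of TRBV1 clonotypes followed that of each library as a whole. A TRBV1 clonotype had a mean of 2.97 reads in the CD4, 1.77 in the CD8 and 4.82 in the DN library, and clonotypes with other V genes had 2.98, 1.87 and 4.61. Clonotypes with 1 read made up 63.4% of TRBV1 in the CD4, 71.9% in the CD8 and 57.7% in the DN library, against 62.0%, 68.6% and 56.3%. At the depth of the smallest library, 73.7% of TRBV1 clonotypes in CD8 and 61.1% in DN T cells would be expected to have 1 read, so that DN T cells came close to CD4 T cells. The 10 largest TRBV1 clonotypes held 15.7% of TRBV1 reads in the CD4 (14.9 to 16.4), 9.56% in the CD8 (9.12 to 10.03) and 23.6% in the DN library (23.1 to 24.2). It took the 186 largest clonotypes in the CD4, 1827 in the CD8 and 129 in the DN library to reach 50% of the TRBV1 reads. These were 6.37%, 19.87% and 2.685% of the TRBV1 clonotypes, close to the 7.11%, 18.99% and 3.10% with other V genes. Neither these counts nor the shares of the 10 largest were brought to equal depth. Among the 100 largest TRB clonotypes of a library, 8 used TRBV1 in the CD4, 10 in the CD8 and 12 in the DN library (its share of all clonotypes was 6.52%, 11.3% and 11.5%).

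The largest TRBV1 clonotypes of DN T cells were DN clonotype 1, with 1299 reads in DN, 179 in CD8 and 51 in CD4 T cells, and DN clonotype 2, with 1142, 188 and 39 reads. They ranked 3 and 6 among all TRB clonotypes of DN T cells and 12 and 10 in CD8 T cells. DN clonotype 3 followed with 735, 113 and 28 reads, DN clonotype 4 with 592, 111 and 15, and DN clonotype 5 with 439, 67 and 9. Their top place in DN T cells follows from how they were picked and named. In all 5 the share in CD8 T cells was above that in CD4 T cells. Their CDR3s ran from 11 residues in DN clonotype 4 to 16 in DN clonotype 2 and used TRBJ2-7, TRBJ2-1 and TRBJ1-1.

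The largest TRBV1 clonotypes of the other subsets were distributed differently. CD8 clonotype 1 had 593 reads in CD8 T cells, where it ranked 3 among all TRB clonotypes, and 5 in DN and 12 in CD4 T cells. CD8 clonotype 4 had 153 reads in CD8, 6 in DN and 1 in CD4 T cells. These were high in CD8 T cells alone, while the clonotypes in places 2, 3 and 5 of CD8 T cells were DN clonotypes 2, 1 and 3. In CD4 T cells, CD4 clonotype 1 had 236 reads, with 5 in CD8 and 41 in DN T cells. In the same order of subsets, CD4 clonotype 2 had 201, 10 and 54 reads and CD4 clonotype 3 had 169, 12 and 50. CD4 clonotype 4 had 139 reads, with 2 in CD8 and 2 in DN T cells, and CD4 clonotype 5 had 133 reads, 4 in CD8 and none in DN T cells. None of the TRBV1 clonotypes was among the 100 largest TRB clonotypes of all 3 libraries.

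Some TRBV1 CDR3s of one amino acid sequence were encoded by several nucleotide sequences. The 15 residues of CD4 clonotype 2 were also encoded by a second sequence with the same J gene, shown because its distribution was different. It was picked after its values were seen.
same residues as CD4 clonotype 2: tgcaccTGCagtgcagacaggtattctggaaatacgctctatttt
It differed from CD4 clonotype 2 at 2 bases and had 7 reads in the CD4, 61 in the CD8 and 330 in the DN library, where CD4 clonotype 2 had 201, 10 and 54. One receptor beta chain was thus large in CD4 T cells through one rearrangement and large in DN T cells through another. Over all TRBV1 clonotypes, 5.72% of the amino acid sequences in the CD4, 7.65% in the CD8 and 5.62% in the DN library had more than 1 nucleotide sequence, against 5.25%, 6.70% and 5.02% with other V genes. Of 12849 different TRBV1 amino acid sequences, 294 were found in all 3 libraries, and 151 of these had more than 1 nucleotide sequence. Neither count was set beside other V genes, and the 151 was not set beside a share over all 12849 sequences. They are therefore given as counts alone.

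TRBV1 clonotypes were shared between all pairs of libraries, where a clonotype counted as shared if its CDR3 bases and its V and J genes were identical. Of the 4804 TRBV1 clonotypes of DN T cells, 1005 (20.9%, 19.8 to 22.1) were also found in CD8 T cells and 416 (8.66%, 7.90 to 9.49) in CD4 T cells. Over all TRB clonotypes of DN T cells the shares were 18.5% and 8.95%. The 1005 made up 10.9% of the TRBV1 clonotypes of CD8 T cells (9.57% over all TRB clonotypes) and the 416 made up 14.2% of those of CD4 T cells (8.38% over all). CD4 and CD8 T cells had 417 TRBV1 clonotypes in common, 14.3% of the CD4 list (8.70% over all) and 4.54% of the CD8 list (4.80% over all). In all 3 libraries 227 were found, or 4.73% of the DN list (4.62% over all). These shares depend on the lengths of both lists, and TRBV1 took a larger part of the CD8 and DN lists than of the CD4 list. Per 1000000 possible pairs of clonotypes, TRBV1 had 22.8 shared between CD8 and DN, 29.7 between CD4 and DN and 15.5 between CD4 and CD8 T cells, which ranked 11, 8 and 9 of the 14 V genes. These ranks depend on list length too. Between CD8 and DN T cells the rate was highest for TRBV2 (159), which had the fewest clonotypes of the 14 in both. It was lowest for TRBV13-3 (17.7), which had the most in CD8 T cells. The ranks therefore do not show whether TRBV1 was shared less than other V genes.

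Shared clonotypes were large in DN T cells. The TRBV1 clonotypes also found in CD8 T cells held 69.3% of the TRBV1 reads of DN T cells (68.7 to 69.9), and those also found in CD4 T cells held 51.2%. For other V genes these shares were 66.2% and 49.1%, so that large shared clonotypes were a feature of the whole DN library. Conversely, clonotypes found in DN T cells held 27.2% of the TRBV1 reads in CD8 and 33.3% in CD4 T cells, against 24.4% and 21.1% for other V genes. All 12 TRBV1 clonotypes among the 100 largest of DN T cells also had reads in CD8 T cells, where their shares came to 10.99% to 24.15% of those in DN T cells (median 19.9%), and in CD4 T cells, where they came to 2.05% to 7.68% (median 4.31%). Their CD8 reads thus followed their DN reads in a narrow band. Of the 10 TRBV1 clonotypes among the 100 largest of CD8 T cells, 9 were found in DN T cells, and 6 were among the 100 largest there as well. Of the 8 in CD4 T cells, all had reads in CD8 T cells, with a median share there of 3.16% of the CD4 share. In DN T cells 6 of them had reads. The same look-up was not made for large clonotypes with other V genes. These counts and the band are therefore not shown to be particular to TRBV1. Whether these shared reads came from members of 1 clone in several subsets, from the purity of the sort or from transfer of reads between libraries was not tested, and the reads of DN clonotypes 1 to 5 in CD8 and CD4 T cells and all counts of sharing depend on it.

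**Figure D5:**
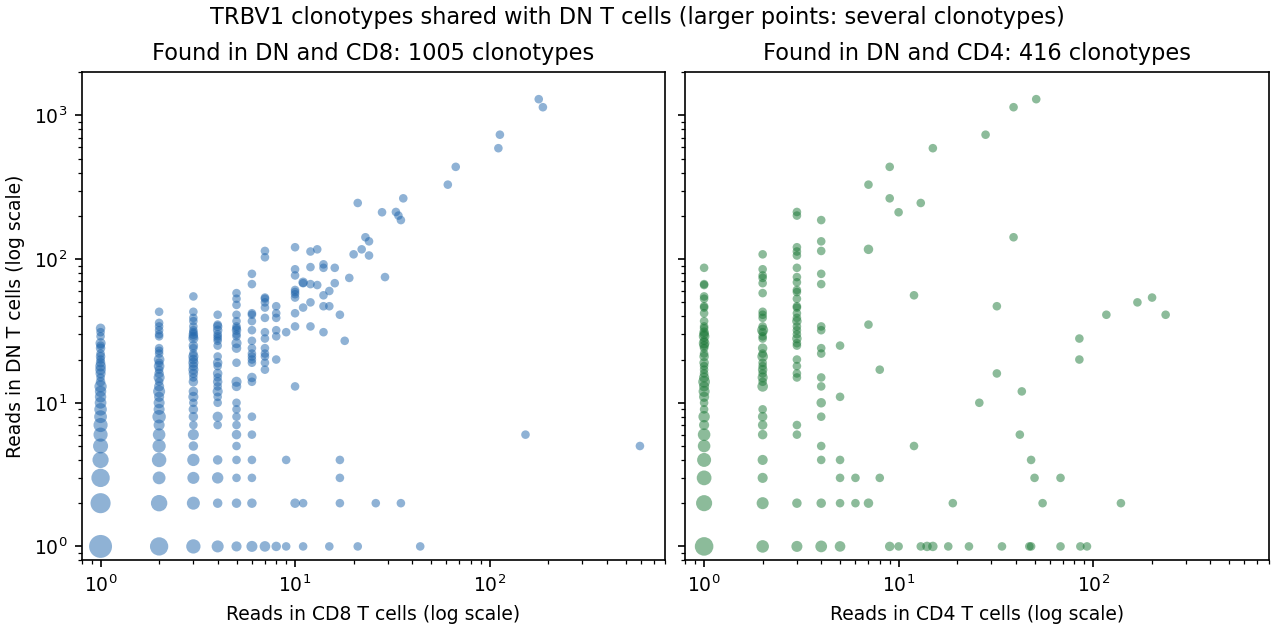
Reads of TRBV1 clonotypes found in both libraries, in DN T cells (y axis, log scale) against CD8 T cells (left, 1005 clonotypes) and CD4 T cells (right, 416 clonotypes), where larger points stand for several clonotypes with the same pair of values. Large DN clonotypes lie along a band in the left panel up to DN clonotype 1 with 1299 reads in DN and 179 in CD8 T cells, and CD8 clonotype 1 with 593 reads in CD8 and 5 in DN T cells lies apart.

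Length and D use also differed with sharing among TRBV1 clonotypes. The 190 clonotypes found in CD4 and CD8 but not in DN T cells had a mean of 13.64 ± 1.52 residues, and 44.7% of them had no D gene. The 227 found in all 3 libraries, of which 224 were in frame, had 14.59 ± 1.47 residues and 29.02% without D, and the 3610 found in DN T cells alone had 14.80 ± 1.39 residues (SD over 3392 in-frame clonotypes) and 24.5% without D. Over all TRB clonotypes the same groups had 13.52, 14.17 and 14.24 residues and 35.3%, 24.1% and 23.0% without D, so that the order was not particular to TRBV1. Among clonotypes restricted to 1 library, the TRBJ2 difference from other V genes was -4.74 points for CD8 and -4.48 for DN T cells, the length difference was 0.340 residues in the CD4, 0.666 in the CD8 and 0.631 in the DN library, and the second cysteine was present in 99.1%, 99.3% and 99.1%.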

How the data were processed

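TCR alpha and beta mRNA of CD4, CD8 and DN T cells was made into libraries with the Takara SMARTer Mouse TCRα/β kit, and MiXCR was used by the authors to align the reads and assemble clonotypes. Its version, settings and germline reference, and any filter, were not given in the sources used here. In the deposited tables, each clonotype had a count of reads, not normalized, with the best V, D and J gene. The deposited fraction of reads equalled the count over the table's total. No comparison columns of the authors were used.

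Shares were computed over clonotypes with TRBV and TRBJ genes, and 84, 101 and 78 others in CD4, CD8 and DN T cells were left out. No filter on reads or frame was applied unless stated. Shares have Wilson intervals, differences of shares Newcombe intervals, ratios log-normal intervals and mean differences normal intervals, all at 95%. Clonotypes of 1 library are not replicates. The members, lists and measures were chosen with earlier results of these data known. Named were the 5 in-frame TRBV1 clonotypes with the most reads per library, the largest out-of-frame one, any among the 100 largest of all 3 libraries, all J and D genes, the 3 V genes with the nearest ratios, and the ends and neighbours in a ranking. The consensus start was derived from the clonotypes themselves, since no germline TRBV1 sequence was used here. The alternatives covered frame, at least 2 reads, merging of clonotypes with 1 mismatch to one with at least 10 times their reads, weighting, depth, sharing and the largest clonotypes. The measures were tested on simulated data. The software was Python 3.11.15 with pandas 2.3.3, NumPy 2.4.6, matplotlib 3.10.9 and SciPy 1.17.1.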

Additional observations from a re-analysis of the deposited data

How the results depend on the processing

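No test was applied, so an alternative counted as a change where the value left its own 95% interval or its direction turned. Of 146 alternatives, 72 stayed inside, 72 moved and 2 changed direction. The changes of direction were the DN to CD8 ratio of read shares, 0.986 without the 10 largest TRB clonotypes, and the TRBJ2 difference from other V genes in CD4 T cells, -1.38 points weighted by reads. The latter value lay inside its interval (-1.64 to 2.08), which included 0, so that difference had no clear direction to begin with. The causes of these changes of direction were not tested. No paired analysis was possible because each subset had 1 library. Merging probable sequence errors (38 TRBV1 clonotypes of CD4, 61 of CD8 and 107 of DN T cells) and taking all reads of the table as the denominator moved none of the 18 values so recomputed out of its interval. Values below are in the order CD4, CD8 and DN T cells unless named otherwise.

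In-frame clonotypes alone gave read shares of 6.66%, 10.9% and 12.2%, a clonotype share of 11.9% in DN T cells and a share of the 10 largest of 24.2% in DN T cells. Without the 10 largest clonotypes the read share was 6.77% in CD4 and 10.5% in DN T cells, the DN to CD4 ratio 1.56 and the CD8 to CD4 ratio 1.58. With at least 2 reads, the clonotype shares were 6.28%, 10.2% and 11.1%, the read share in CD8 T cells 10.2%, the DN to CD8 ratio 1.18 and the CD8 to CD4 ratio 1.58. The 10 largest then held 19.9%, 16.1% and 26.9% of the reads, in-frame clonotypes made up 97.3%, 98.8% and 97.1%, the second cysteine 99.9%, 99.7% and 99.6%, and clonotypes without D 33.40% in CD4 and 29.3% in CD8 T cells. Mean length was 14.09 residues in CD4 and 14.41 in CD8 T cells, and TRBJ2 use 66.8% in CD8 T cells. Of the CD8 clonotypes 5.50% were shared with CD4 and 16.3% with DN T cells, and of the DN clonotypes 7.48% with CD4 T cells.

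Weighted by reads, TRBJ2 use was 65.8%, 67.2% and 68.4%, no-D clonotypes 35.1%, 29.8% and 31.2%, in-frame ones 97.3%, 97.7% and 97.6%, the second cysteine 99.7% in CD4 and 99.8% in DN T cells, and the mean length 14.39 in CD8 and 14.60 in DN T cells. Clonotypes found in no other library, an alternative for read and clonotype shares chosen after seeing the data, gave read shares of 5.36%, 10.4% and 10.8%, a clonotype share of 5.92% in CD4 T cells, in-frame shares of 93.3% in CD4 and 94.0% in DN T cells and a mean length of 14.80 in DN T cells. The ratios were then 1.03 for DN over CD8, 2.01 for DN over CD4 and 1.95 for CD8 over CD4. Without out-of-frame clonotypes 1 inserted or deleted base from a larger one, also chosen after seeing the data, 95.5% were in frame in DN T cells. At equal depth clonotypes with 1 read made up 73.7% in CD8 and 61.1% in DN T cells. Matched by amino acid sequence, CD4 T cells shared 24.6% with CD8 and 19.3% with DN, CD8 T cells 7.88% with CD4 and 14.97% with DN, and DN T cells 11.6% with CD4 and 28.0% with CD8 T cells. Sharing was not recomputed at equal depth.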
